A study of Mus musculus with 6 samples.

Results

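Gasdermins are proteins that punch pores into cell membranes. This account follows the 9 mouse gasdermin genes Gsdma, Gsdma2, Gsdma3, Gsdmc, Gsdmc2, Gsdmc3, Gsdmc4, Gsdmd and Gsdme, taken by gene symbol from the 19309 genes of the deposited expression table, in which all 9 had a row. RNA came from the cheek skin of 3 healthy C57BL/6 mice, an inbred strain, aged 6 to 8 weeks and housed free of specific pathogens. On the right cheek of each mouse the shaved skin was wiped for 30 s with an equal mix of acetone and ether and then for 30 s with distilled water (AEW, a dry skin model). The left cheek was wiped with distilled water alone for 60 s (vehicle), and both cheeks were treated in the morning and the afternoon and taken on day 12. There were thus 3 AEW and 3 vehicle libraries, numbered here by mouse. AEW was always on the right side, so treatment and side of the face cannot be told apart. The series title names MMP9, but the labels give no genotype or inhibitor, so every library carries the same alleles as far as they say.

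A gasdermin is made as an inactive protein in which a carboxy-terminal domain holds back a pore-forming amino-terminal domain. When a protease cuts the linker between them, the freed domain inserts into the plasma membrane, and interleukin 1 family cytokines leave through the pore or the cell bursts, a death called pyroptosis. Gasdermin D is the form cut by inflammatory caspases, whereas the gasdermin A and C genes are best known from epithelia, gasdermin A in epidermis and hair follicle. Humans have a single GSDMA and a single GSDMC gene, while the mouse has several neighbouring copies of each.

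Library totals ran from 18449145 to 19506462 estimated counts. Over all genes, the edgeR quasi-likelihood test called 733 of 15109 tested genes higher and 1027 lower in AEW skin at an adjusted p under 0.05. Genes higher numbered 33, 376 and 23 without vehicle mice 1, 2 and 3, and 1197, 175 and 346 without AEW mice 1, 2 and 3. Genes lower numbered 148, 807 and 117 without vehicle mice 1, 2 and 3, and 1041, 258 and 654 without AEW mice 1, 2 and 3. The samples were whole skin, and the defining markers of keratinocytes were abundant in every library. Summed markers of suprabasal keratinocytes ran from 22600 to 34700 TPM (a level scaled for transcript length and library size) in AEW skin and from 17900 to 23400 TPM in vehicle skin, with 3 of 9 markers called higher and 0 lower. Those of basal keratinocytes ran from 11200 to 11600 TPM in AEW skin and from 6020 to 9820 TPM in vehicle skin, with 1 of 8 called higher. Skeletal muscle markers ran from 13300 to 18400 TPM in AEW skin and from 31500 to 44100 TPM in vehicle skin, with 8 of 10 called lower. Neutrophil markers ran from 32.5 to 190 TPM in AEW skin and from 10.3 to 20.3 TPM in vehicle skin. Of the 10 listed neutrophil markers only 4 were tested, and 3 of these were called higher. Elane, an untested marker of that list, went the other way, at 0.133 ± 0.0577 TPM in AEW skin and 0.607 ± 0.0907 TPM in vehicle skin (SD, n = 3 each). The summed adipocyte markers (3720 to 4290 TPM in AEW skin and 5060 to 8290 TPM in vehicle skin), T cell markers (30.2 to 39.2 and 47.4 to 50 TPM) and endothelial markers (147 to 161 and 180 to 239 TPM) were lower in AEW skin without overlap, with 2 of 8, 1 of 5 and 1 of 6 called lower. Hair follicle markers summed to 1870, 16.6 and 482 TPM in AEW mice 1 to 3 and to between 250 and 278 TPM in vehicle skin, so the AEW libraries stood far apart from one another in these markers. In whole skin, a change in the number of cells of a type and a change in RNA per cell cannot be told apart, and the part of these markers in the results below was not tested.

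AEW skin held more gasdermin transcript in total, and the added transcript came from the A and C genes. The 9 genes summed to 178, 344 and 322 TPM in AEW mice 1 to 3, against 113, 139 and 107 TPM in vehicle mice 1 to 3. No AEW library fell as low as a vehicle library. Of the 7 members that passed the low-count filter, 4 were called higher and 0 lower, where 4.85% of all tested genes were called higher and 6.8% lower. At an unadjusted p under 0.05 the members counted 5 higher and 0 lower, where all tested genes gave 14.8% higher and 16% lower. DESeq2 called 5 members higher and 0 lower, against 8.85% and 9.77% of the genes it tested. For limma on log2 TPM it was 4 higher and 0 lower, against 4.85% and 4.62%. The fit with the mouse as a term called 1 member higher and 0 lower, beside 1.99% and 3.89% of all tested genes. Without vehicle mice 1, 2 and 3 it was 0, 2 and 0 members higher, and without AEW mice 1, 2 and 3 it was 5, 1 and 1. The median log2 fold change was 1.26 over these 7 members and 0.014 over all tested genes. The family was chosen for study with this contrast in view, so these counts describe the members and nothing is read from them. Gsdmc3 and Gsdmc4 did not pass the filter, and Gsdmc2 passed it only through its AEW libraries.

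**Figure D1:**
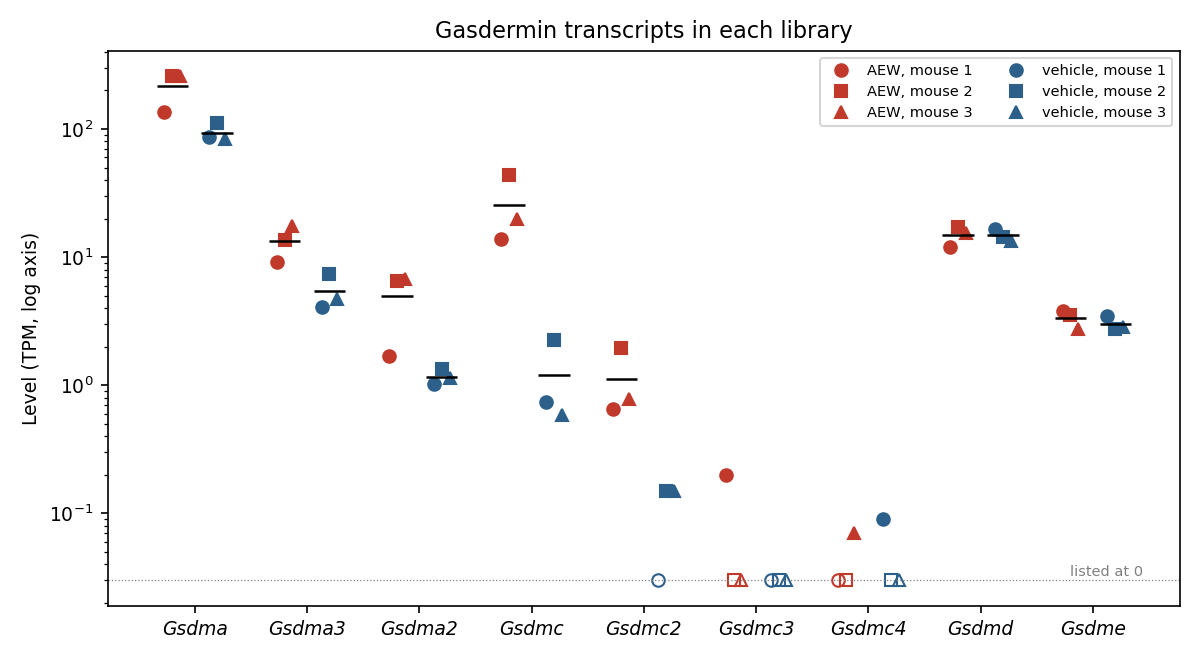
Level of each gasdermin in TPM on a log axis, 1 point per library with AEW to the left of vehicle, the marker shape giving the mouse and the bar the mean of 3 libraries where none is at 0. Open markers on the dotted line are libraries listed at 0. The A genes, Gsdmc and Gsdmc2 separate by treatment, while Gsdmd and Gsdme overlap.

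The gasdermin C genes lie side by side on chromosome 15, and Gsdmc and Gsdmc2 among them had the greatest log2 fold changes of the 7 tested members. Gsdmc (NCBI gene 83492), also called Gsdmc1, encodes a pore-forming protein that caspase 8 can cleave in human tumour cells. It had 13.8, 43.5 and 19.7 TPM in AEW mice 1 to 3, against 0.74, 2.27 and 0.59 TPM in vehicle mice 1 to 3. All AEW libraries lay above all vehicle libraries, and mouse 2 was the highest on both cheeks. The estimated counts behind these levels were 376, 1221 and 517 in AEW mice 1 to 3 and 19.9, 59.8 and 15.3 in vehicle mice 1 to 3. The log2 fold change was 4.4 ± 0.66 (SE, 95% interval 2.85 to 5.94), a difference of 21.0 fold.

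Within mouse 1 the AEW cheek held 17.1 times the Gsdmc CPM (library-size scaled counts) of the vehicle cheek, with an exact 95% binomial range of 10.9 to 28.3. For mouse 2 the ratio was 19.8 (15.3 to 26.1), and for mouse 3 it was 32.0 (19.2 to 57.7). These ranges cover counting error only, and those of the 3 mice overlap. Gsdmc was the 1 member called with the mouse as a block, at a log2 fold change of 4.43 ± 0.21 (SE). With all libraries bar one, its log2 fold change lay between 3.71 and 5.23, and the call was lost without vehicle mouse 1 (4.15) and without vehicle mouse 3 (4.07). Gsdmc was also set against keratinocyte transcript. The suprabasal sum differs far less between libraries than Gsdmc does, so separation on this scale was given in advance. Of its 9 markers, 3 were themselves called higher, so the values below are descriptions. Per 1000 TPM of suprabasal keratinocyte markers, Gsdmc stood at 0.612, 1.25 and 0.663 TPM in AEW mice 1 to 3 and at 0.0413, 0.097 and 0.0295 TPM in vehicle mice 1 to 3.

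**Figure D2:**
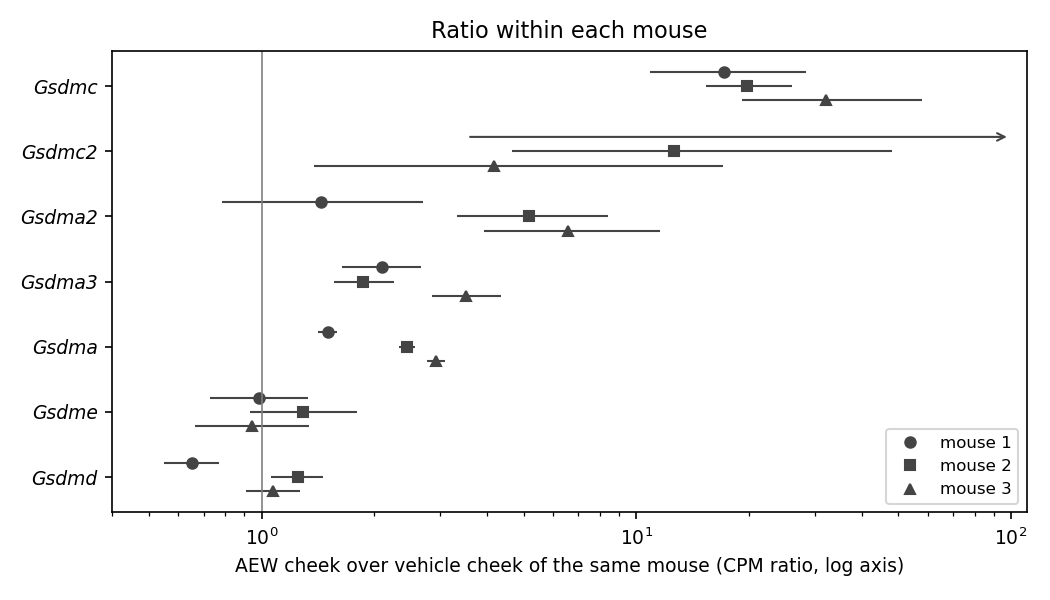
Ratio of the AEW cheek to the vehicle cheek of the same mouse for the 7 members that passed the low-count filter, in CPM on a log axis, with 95% exact binomial intervals that cover counting error only; the arrow marks a vehicle library at 0. Gsdmc lies from 17.1 to 32.0 in all 3 mice, and the A genes are lowest in mouse 1 except for Gsdma3.

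Gsdmc2 (gene 331063) was low in both groups. It had 0.65, 1.95 and 0.78 TPM in AEW mice 1 to 3, against 0, 0.15 and 0.15 TPM in vehicle mice 1 to 3. Its 86.7 estimated counts over the AEW libraries and 7.88 over the vehicle libraries gave a log2 fold change of 3.29 ± 0.83 (SE, 95% interval 1.32 to 5.25). The groups did not overlap, but the gene entered the test only because of its AEW level. It lost the call with the mouse as a block (3.30). It also lost it in every fit that left out a single library other than AEW mouse 1, with values of 2.72, 3.67 and 3.69 without vehicle mice 1, 2 and 3 and of 2.51 and 3.53 without AEW mice 2 and 3. Without a low-count filter the call was lost as well (3.28).

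Gsdmc3 (gene 270328) was listed at 5.49 estimated counts in AEW mouse 1 and at 0 in the other 5 libraries. Gsdmc4 (gene 74548) was listed at 1.69 counts in AEW mouse 3 and 2.1 in vehicle mouse 1, and at 0 in the other 4. A count of 0 allows a level of up to 3 counts, which is 0.149 to 0.158 CPM in AEW libraries and 0.162 to 0.167 CPM in vehicle libraries. This limit covers counting error only, and not reads that may have been given to another C gene. No difference between AEW and vehicle skin was detectable for either gene at this depth.

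The C genes are near copies of one another, which limits how well 50-base reads can be assigned to them. The coding starts below, from the GENCODE M21 transcripts (GRCm38 build), show the first 60 coding bases of each C gene from 5′ to 3′, with capitals where a base differs from Gsdmc at the same position.
Gsdmc: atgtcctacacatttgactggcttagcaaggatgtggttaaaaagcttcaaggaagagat
Gsdmc2: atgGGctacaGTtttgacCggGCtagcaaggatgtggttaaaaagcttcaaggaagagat
Gsdmc3: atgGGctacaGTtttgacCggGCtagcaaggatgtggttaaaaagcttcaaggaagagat
Gsdmc4: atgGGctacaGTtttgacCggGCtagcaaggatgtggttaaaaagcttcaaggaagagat
Over this stretch Gsdmc2, Gsdmc3 and Gsdmc4 are the same, and each differs from Gsdmc at 7 of 60 bases. Over the aligned coding sequence, Gsdmc2 and Gsdmc3 are 97.1% identical and each is 93.8% identical to Gsdmc4, while Gsdmc is 87.0% to 87.5% identical to the other C genes.

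Of all 50-base windows of the Gsdmc transcript, 16.4% also occur in another gasdermin transcript. The same share is 48.5% for Gsdmc2, 46.9% for Gsdmc3 and 39.0% for Gsdmc4. Gsdmc is thus the C gene whose reads are the least open to being divided among copies, and the low values of Gsdmc2, Gsdmc3 and Gsdmc4 are uncertain. The Gsdmc2 estimate was 4.23%, 4.30% and 3.55% of the Gsdmc estimate in AEW mice 1 to 3 and 0%, 7.01% and 24.1% in vehicle mice 1 to 3, the last from few counts, and whether reads of Gsdmc entered it was not tested. Summed over the 4 C genes, a quantity chosen after the values were seen, the estimated counts were 397, 1273 and 537 in AEW mice 1 to 3 and 22, 64 and 19 in vehicle mice 1 to 3. That sum had a log2 fold change of 4.31 ± 0.63 (SE), and 4.33 ± 0.17 with the mouse as a block.

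**Figure D3:**
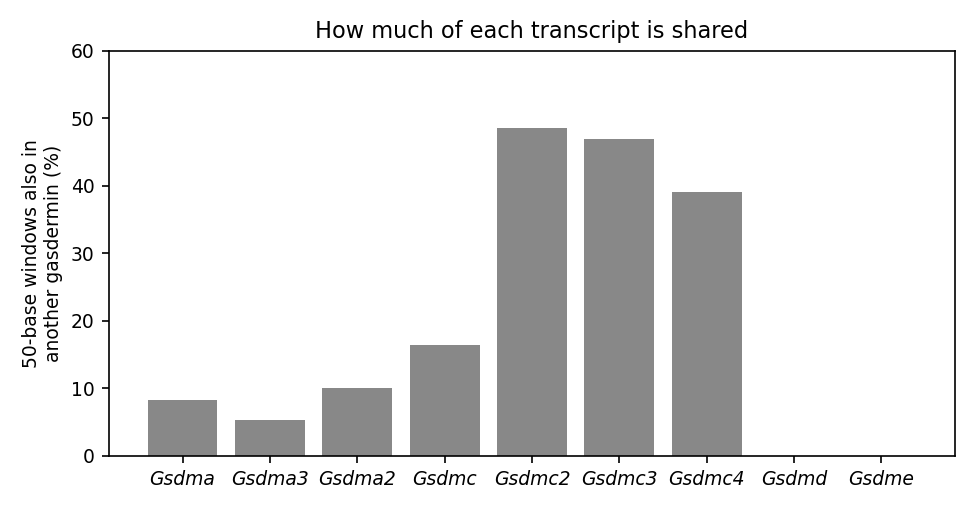
Share of the 50-base windows of each member's transcript that also occur in another gasdermin transcript, in percent. Gsdmc2, Gsdmc3 and Gsdmc4 share 39.0% to 48.5% of their windows, Gsdmc 16.4%, the A genes 5.3% to 10.1%, and Gsdmd and Gsdme none.

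The gasdermin A genes, neighbours on chromosome 11, held most of the family's transcript in both groups. Gsdma (gene 57911), a gasdermin of the upper epidermis that a streptococcal protease can cleave, had 136, 257 and 259 TPM in AEW mice 1 to 3, against 86.4, 111 and 84.1 TPM in vehicle mice 1 to 3. Every AEW library lay above every vehicle library, with AEW mouse 1 the nearest to them. Gsdma made up 77.4% ± 2.89 of the family's TPM in AEW skin and 78.4% ± 1.53 in vehicle skin (SD, n = 3 each), so its share stayed within the spread between libraries. Its log2 fold change was 1.19 ± 0.26 (SE, 95% interval 0.58 to 1.81), a difference of 2.29 fold. The ratio of AEW to vehicle CPM was 1.5 for mouse 1, with an exact 95% binomial range of 1.41 to 1.59. For mouse 2 it was 2.44 (2.33 to 2.57), and for mouse 3 it was 2.92 (2.76 to 3.08). None of these ranges overlap, so the mice differed beyond counting error.

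Gsdma3 (gene 450219), whose mutations cause hair loss in mice, had 9.15, 13.7 and 17.5 TPM in AEW mice 1 to 3, against 4.11, 7.45 and 4.68 TPM in vehicle mice 1 to 3. Its groups did not overlap, and its log2 fold change was 1.26 ± 0.31 (SE, 95% interval 0.54 to 1.99). Gsdma2 (gene 76758), known in mice from the stomach, was the lowest of the A genes, with 1.69, 6.55 and 6.72 TPM in AEW mice 1 to 3 against 1.03, 1.34 and 1.13 TPM in vehicle mice 1 to 3. Its groups did not overlap either, yet AEW mouse 1 lay close to the vehicle libraries. Its log2 fold change was 2.13 ± 0.56 (SE, 95% interval 0.82 to 3.44), and it was not called. In mouse 1 the 2 cheeks could not be told apart at this depth, since the Gsdma2 ratio of 1.44 had an interval from 0.783 to 2.70. Mouse 2 had a ratio of 5.18 (3.33 to 8.39) and mouse 3 one of 6.56 (3.93 to 11.6).

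The calls of the A genes depended on the libraries used, as did the number of genes called over all genes. With 1 library left out, the log2 fold change stayed between 1.01 and 1.44 for Gsdma and between 1.05 and 1.56 for Gsdma3. With the mouse as a block, Gsdma (1.14) and Gsdma3 (1.26) were no longer called. Gsdma was not called without vehicle mouse 1 (1.15), vehicle mouse 2 (1.32), vehicle mouse 3 (1.12), AEW mouse 2 (1.01) or AEW mouse 3 (1.09). Gsdma3 was not called without vehicle mouse 1 (1.10), vehicle mouse 3 (1.17), AEW mouse 2 (1.21) or AEW mouse 3 (1.05). Gsdma2 became called without AEW mouse 1 (2.55), with DESeq2 (2.14) and with no TMM scaling (2.14). The 5 members with non-overlapping groups, namely these 3 and Gsdmc and Gsdmc2, stand beside 17.4% of all tested genes that were higher in AEW skin without overlap. No member was lower without overlap, where 19.5% of all tested genes were.

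AEW mouse 1, the lowest AEW library for the 3 A genes and for Gsdmc and Gsdmc2, was also the lowest AEW library in suprabasal markers, at 22600 TPM, and the highest in hair follicle markers, at 1870 TPM. Per 1000 TPM of suprabasal markers, Gsdma stood at 6.04, 7.42 and 8.73 TPM in AEW mice 1 to 3 and at 4.83, 4.74 and 4.20 TPM in vehicle mice 1 to 3. Gsdma3 stood at 0.405, 0.395 and 0.591 TPM in AEW mice and at 0.230, 0.318 and 0.234 TPM in vehicle mice on the same scale. For both genes the groups again did not overlap, although the ratio of AEW to vehicle within each mouse was smaller than in TPM. Gsdmd, described below, stood at 0.527, 0.499 and 0.518 TPM in AEW mice 1 to 3 and at 0.934, 0.613 and 0.671 TPM in vehicle mice 1 to 3 on this scale, lower in AEW skin without overlap. Its mean TPM was 14.9 in AEW skin and 14.8 in vehicle skin, so this gap follows the suprabasal sum used as divisor. How many other genes separate on this scale was not tested.

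Sequence sharing is a smaller matter for the A genes. From the same transcripts, with capitals where a base differs from Gsdma, the first 60 coding bases show how alike they are.
Gsdma: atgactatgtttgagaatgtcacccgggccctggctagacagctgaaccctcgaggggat
Gsdma2: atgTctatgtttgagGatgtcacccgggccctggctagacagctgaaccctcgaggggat
Gsdma3: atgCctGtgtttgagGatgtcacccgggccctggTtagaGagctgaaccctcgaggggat
Gsdma2 differs from Gsdma at 2 of 60 bases and Gsdma3 at 5, and the 3 coding sequences are 89.0% to 91.0% identical. Yet 8.3% of the 50-base windows of Gsdma, 5.3% of those of Gsdma3 and 10.1% of those of Gsdma2 occur in another gasdermin. The estimates were nonetheless fractional in all 6 libraries for each A gene, and Gsdma2 is the A gene with the lowest level and the largest shared portion. Summed over the A genes, again a quantity chosen after the values were seen, the log2 fold change was 1.21 ± 0.26 (SE), and it lost the call with the mouse as a block (1.16 ± 0.21).

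The promoter of Gsdma3 is shown because it is the only A gene with one in the RefSeq table used. The 300 bases, from 250 before to 50 after the start on the plus strand, are chr11:98626099-98626398 of GRCm38.p6, with capitals at the only match to the motifs searched.
Gsdma3: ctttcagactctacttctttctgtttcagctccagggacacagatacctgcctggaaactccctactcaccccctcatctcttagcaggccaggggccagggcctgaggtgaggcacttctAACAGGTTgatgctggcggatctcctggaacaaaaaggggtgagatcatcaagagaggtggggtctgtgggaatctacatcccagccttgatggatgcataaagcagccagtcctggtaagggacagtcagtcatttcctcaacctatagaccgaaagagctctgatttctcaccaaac
The match is to AACCNGTT, the motif of grainyhead-like factors of surface epithelia, on the reverse strand. It occurs on either strand in 2.09% of the 32851 RefSeq promoters. Another 6 motifs have no match in this window on either strand. They were TGANTCA of AP-1, held by 7.81% of promoters, TTCNNNGAA of STAT factors, held by 8.30%, and GGGANTTCC of NF-kB, held by 1.68%. The others were the core promoter box TATAAA, held by 13.6%, the GC box GGGCGG, held by 35.7%, and AGATAA of GATA factors, held by 11.2%. Of the other members, Gsdmc3 has no match to any of the 7 motifs and Gsdme has 1, to the GC box.

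Gsdmd and Gsdme, which carry pyroptosis in most cell types, had overlapping TPM in both groups. Gsdmd (gene 69146), the executioner downstream of inflammasomes, had 11.9, 17.3 and 15.4 TPM in AEW mice 1 to 3, against 16.7, 14.4 and 13.4 TPM in vehicle mice 1 to 3. The ranges overlap in TPM, though not per suprabasal TPM as given above, and both the lowest and the highest TPM are AEW libraries. Its log2 fold change was -0.05 ± 0.19 (SE), with a 95% interval of -0.49 to 0.40, which runs from 0.71 to 1.32 fold. The mice went different ways. The ratio of AEW to vehicle CPM was 0.651 for mouse 1, with an exact 95% binomial range of 0.549 to 0.771. For mouse 2 it was 1.25 (1.06 to 1.46), and for mouse 3 it was 1.07 (0.906 to 1.27).

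Macrophage markers also went different ways between mice. They summed to 1170, 2690 and 2110 TPM in AEW mice 1 to 3 and to 2620, 1250 and 1030 TPM in vehicle mice 1 to 3. They were thus lower on the AEW cheek in mouse 1 and higher on it in mice 2 and 3. For Gsdmd the direction in mouse 3 is not shown, as its range of 0.906 to 1.27 includes 1. Sebaceous gland markers had the same directions as macrophage markers. They summed to 5360, 5950 and 6310 TPM in AEW mice 1 to 3 and to 5820, 5210 and 5890 TPM in vehicle mice 1 to 3. Some other lists had other patterns. Fibroblast and mast cell sums were lower on the AEW cheek in mice 1 and 3, and Langerhans and dendritic cell sums in mice 1 and 2. Of the 10 macrophage and monocyte markers, 0 were called in either direction and none was at 0. The part of macrophage or sebaceous gland markers in the Gsdmd values was not tested.

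Gsdme (gene 54722), a gasdermin that granzyme B can cut, had 3.83, 3.51 and 2.76 TPM in AEW mice 1 to 3, against 3.48, 2.77 and 2.83 TPM in vehicle mice 1 to 3. The groups overlap. Its log2 fold change was 0.09 ± 0.21 (SE), with a 95% interval of -0.42 to 0.59, which runs from 0.749 to 1.51 fold. Neither gene shares any 50-base window with another transcript of the annotation, and the estimates of each were whole numbers in 5 of 6 libraries.

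**Figure D4:**
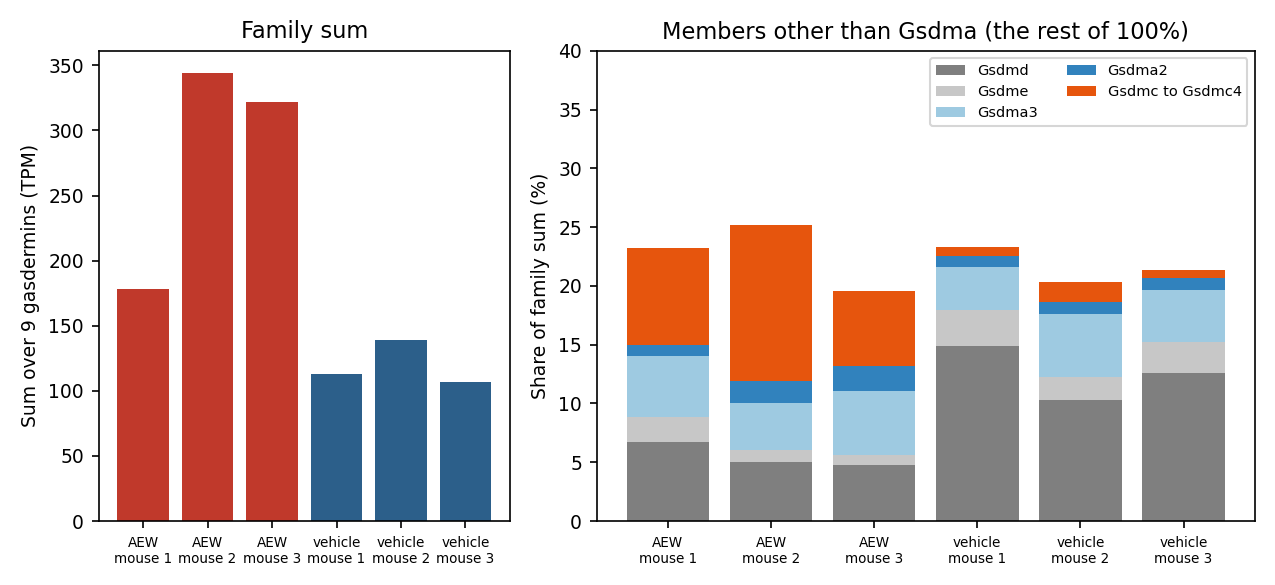
Left, summed TPM of the 9 gasdermins in each library, AEW to the left of vehicle. Right, the share of that sum, in percent, held by the members other than Gsdma; the 4 C genes together hold 6.37% to 13.2% in AEW libraries and 0.692% to 1.74% in vehicle libraries.

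The make-up of the family therefore differed between the groups mainly in gasdermins C and D. The C genes together held 9.28% ± 3.53 of family TPM in AEW skin and 1.06% ± 0.593 in vehicle skin (SD, n = 3 each). Gsdmd held 5.50% ± 1.05 in AEW skin and 12.6% ± 2.30 in vehicle skin, while its own TPM hardly differed. These shares come from levels per length and are descriptions of the contrast the family was chosen on.

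The order of levels, compared in TPM, changed accordingly. In AEW skin, means ran in the order Gsdma, Gsdmc, Gsdmd, Gsdma3, Gsdma2, Gsdme, Gsdmc2, Gsdmc3 and Gsdmc4. In vehicle skin they ran in the order Gsdma, Gsdmd, Gsdma3, Gsdme, Gsdmc, Gsdma2, Gsdmc2, Gsdmc4 and Gsdmc3. Gsdmc was thus the second member in AEW skin, at 25.7 ± 15.7 TPM, and the fifth in vehicle skin, at 1.2 ± 0.93 TPM (SD, n = 3 each). In AEW skin the ranges of Gsdmc and Gsdmd, of Gsdmd and Gsdma3, of Gsdma2 and Gsdme, and of Gsdmc3 and Gsdmc4 overlap, so the ranges do not separate those neighbours. In vehicle skin this holds for Gsdmc and Gsdma2, Gsdmc2 and Gsdmc4, and Gsdmc4 and Gsdmc3. Relative to Gsdmd in the same library, Gsdmc stood at 1.16, 2.51 and 1.28 in AEW mice 1 to 3 and at 0.0443, 0.158 and 0.0439 in vehicle mice 1 to 3, as ratios of TPM. Gsdmc was thus above Gsdmd in every AEW library, although their ranges overlap.

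The genes that vary most like each member over the 6 libraries were found among 13407 tested genes outside the family. Likeness was the root mean square difference of log2 CPM after centring each gene, where 0 is an identical pattern. For Gsdmc they were Sprr2a3 at 0.35, Krt16 at 0.44 and Lce3c at 0.50, which encode a small proline-rich protein, a stress keratin and a late cornified envelope protein. Krt16 averaged 973 CPM in AEW skin and 35.2 CPM in vehicle skin. For Gsdma they were Ivl, which encodes involucrin of the cornified envelope, Acp7 and Dusp14, each at 0.09. Ivl averaged 463 CPM in AEW skin and 217 CPM in vehicle skin.

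For Gsdma3 the nearest genes were Acp7 at 0.13 and Slurp2 and Klk11 at 0.15, and for Gsdma2 they were Endou at 0.20, Slc26a9 at 0.21 and Cxcr2 at 0.24. Acp7 is therefore in the nearest 3 of both Gsdma and Gsdma3, which differed from each other by 0.20. For Gsdmc2 the nearest were Teddm3 at 0.42, Krt84 at 0.48 and Krt6a at 0.55. For Gsdmd they were C1galt1c1, Ddr2 and Cyb5a at 0.05, and for Gsdme Fbn1 and Cd63 at 0.06 and Ugdh at 0.07. All these values rest on the same 6 libraries in 2 groups, so they are descriptions.

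Transcripts of proteins that act with gasdermins were counted in the same fit. Only 11.6% of all tested genes were called in either direction, so the counts describe the partners and nothing is read from them. Of 44 listed partners 40 were tested, and the edgeR test called 0 higher and 1 lower, beside 4.85% and 6.8% of all tested genes. At an unadjusted p under 0.05 the counts were 9 higher and 4 lower, beside 14.8% and 16% of all tested genes. DESeq2 called 1 higher and 2 lower, beside 8.85% and 9.77% of the genes it tested. Limma on log2 TPM called 0 higher and 1 lower, beside 4.85% and 4.62%. Without AEW mouse 1 edgeR called 4 partners higher and 2 lower, and over all genes 1197 higher and 1041 lower. Without either library of mouse 1, with the mouse as a term, it called 13 partners higher and 2 lower. Over all genes that fit called 1922 higher and 1588 lower. The median log2 fold change of the tested partners was 0.17.

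Among 11 tested inflammasome sensors and adaptors, which assemble the platform that activates caspase 1, 0 were called higher and 1 lower. Nek7, a kinase that NLRP3 needs to assemble, had 39.6, 39.0 and 42.1 TPM in AEW mice 1 to 3, against 49.2, 51.6 and 50.5 TPM in vehicle mice 1 to 3. The groups did not overlap, and Nek7 fell, its log2 fold change being -0.39 ± 0.08 (SE) at an adjusted p of 0.0293. The block for mouse ended the call (adjusted p = 0.0668), as did limma on log2 TPM (adjusted p = 0.0537). The call was also lost in the 5 fits that left out a library other than AEW mouse 1, with log2 fold changes from -0.41 to -0.38. Nlrp3, a sensor of cell damage, had 0.707 ± 0.136 TPM in AEW skin and 0.283 ± 0.163 TPM in vehicle skin (SD, n = 3 each) and was not called (adjusted p = 0.0873). Pycard, the adaptor that links sensor and caspase, had 93.8 ± 11.3 TPM in AEW skin and 70.4 ± 6.85 TPM in vehicle skin and was not called (adjusted p = 0.128). Nlrp6 was at 0.02 to 0.08 TPM in all libraries and was not tested.

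None of 7 tested proteases that cleave gasdermins was called by edgeR, and DESeq2 called 0. At an unadjusted edgeR p under 0.05 there were 2 higher and 0 lower, beside 14.8% and 16% of all tested genes. Casp8, which cleaves gasdermins C and D, had 36.7 ± 2.86 TPM in AEW skin and 26.7 ± 3.33 TPM in vehicle skin (SD, n = 3 each, adjusted p = 0.0949). Elane, the neutrophil elastase gene, had 0.1 to 0.2 TPM in AEW skin and 0.51 to 0.69 TPM in vehicle skin and was too low for the edgeR test. It was the 1 partner that limma on log2 TPM called lower.

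Among the 6 genes for released cytokines and membrane rupture, edgeR, DESeq2 and limma called 0. At an unadjusted edgeR p under 0.05 there were 1 higher and 0 lower, beside 14.8% and 16% of all tested genes. Il1a, an alarm cytokine stored in keratinocytes, had 40.3 ± 9.99 TPM in AEW skin and 25.1 ± 7 TPM in vehicle skin (SD, n = 3 each, adjusted p = 0.143). It was called without AEW mouse 1, at a log2 fold change of 0.84 (adjusted p = 0.0355). Il18, a cytokine matured by caspase 1, had 201 ± 42.6 TPM in AEW skin and 146 ± 28.7 TPM in vehicle skin (adjusted p = 0.219). For both cytokines the groups overlap, but the AEW cheek was the higher one in every mouse. The ratios of AEW to vehicle CPM for mice 1 to 3 were 1.37, 1.45 and 1.86 for Il1a and 1.09, 1.46 and 1.48 for Il18. The fit with the mouse as a term did not call either (adjusted p = 0.0534 for Il1a and 0.121 for Il18).

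Of the 9 genes for membrane repair and inhibition edgeR called 0, and of the 7 tested regulators and modifiers it also called 0. At an unadjusted edgeR p under 0.05 the first list had 1 higher and 2 lower, and the second 1 higher and 1 lower. All tested genes gave 14.8% higher and 16% lower at that threshold. DESeq2 called Gpx4 lower and Zdhhc5 higher, and limma called none of either list. Gpx4, which protects membrane lipids from oxidation, had 874 ± 53.3 TPM in AEW skin and 1110 ± 126 TPM in vehicle skin (SD, n = 3 each, adjusted p = 0.0934). Zdhhc5, a palmitoyl transferase, had 53.0 ± 8.6 TPM in AEW skin and 37.0 ± 0.782 TPM in vehicle skin (adjusted p = 0.0755), and edgeR called it without AEW mouse 1 (adjusted p = 0.00915). Vps4a, of the ESCRT membrane repair machinery, had a log2 fold change of -0.23 ± 0.09 (SE, edgeR adjusted p = 0.131). Without AEW mouse 1 it was -0.31 (edgeR adjusted p = 0.0485). Irf1, an interferon-responsive transcription factor, had a log2 fold change of -0.54 ± 0.19 (SE, edgeR adjusted p = 0.102). Pjvk, the more distant gasdermin relative pejvakin, was at 0 in 3 libraries and at 0.1 to 0.22 TPM in the others.

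**Figure D5:**
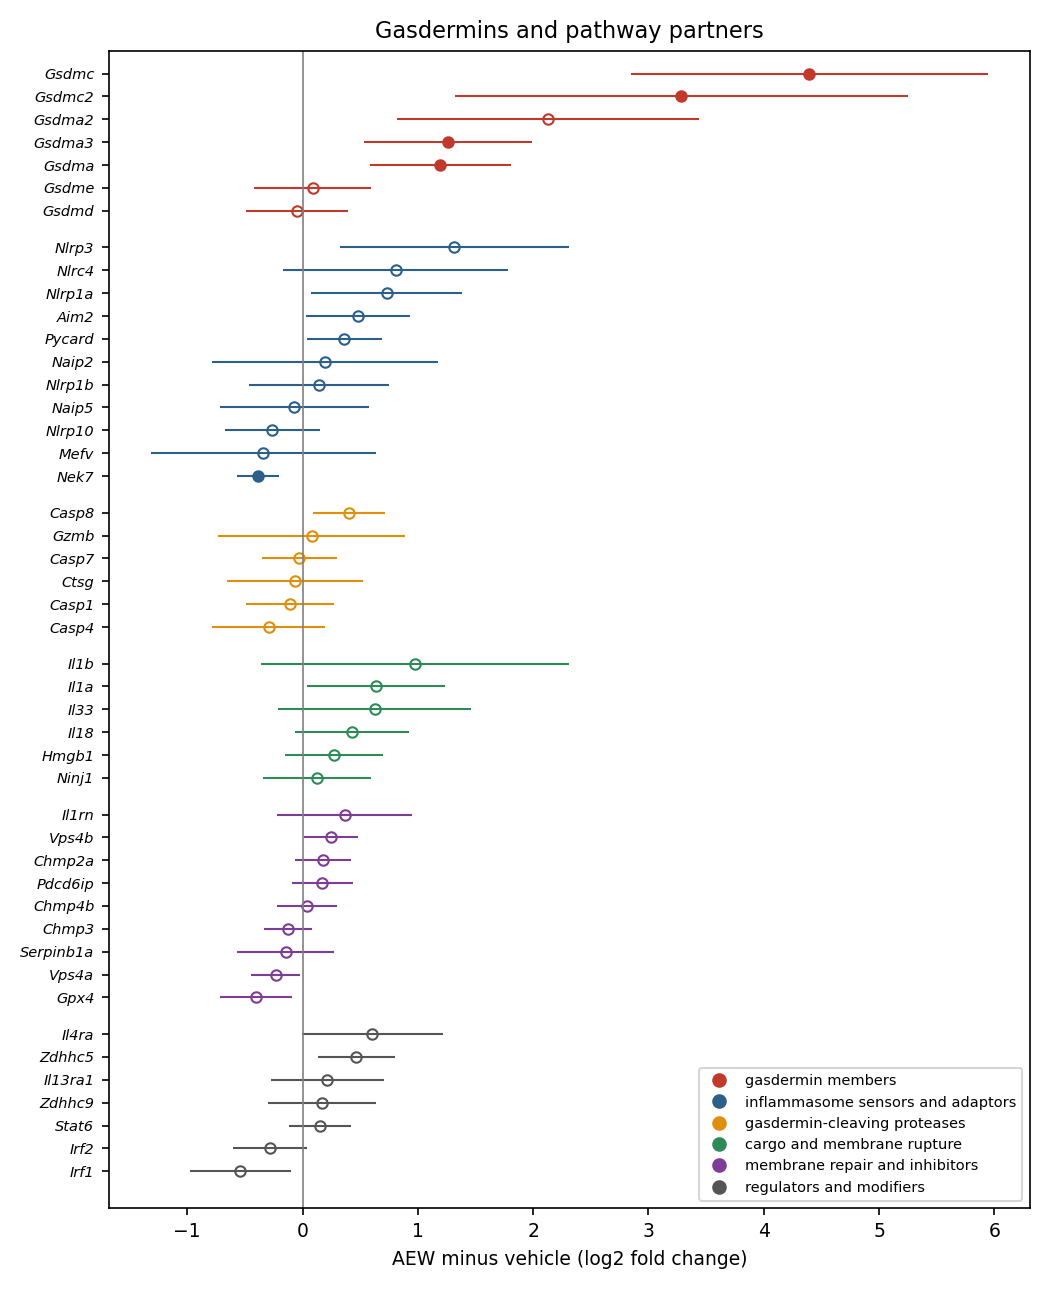
Log2 fold change of AEW over vehicle skin, with its 95% interval, for the 7 tested gasdermins and the tested partners, 1 of them not shown, coloured by role; filled points are called in the edgeR fit over all genes. The filled points are 4 gasdermins, all higher, and Nek7, lower.

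The genes next to the gasdermins on the chromosome were set beside them, as the 2 nearest protein-coding genes on each side of each locus in the RefSeq table. Of 16 such neighbours 13 were tested, and the edgeR test called 2 of them, both lower, where 6.8% of all tested genes were called lower. Beside the C genes, Myc averaged 58.4 ± 3.30 CPM in AEW skin and 47.5 ± 10.8 CPM in vehicle skin (SD, n = 3 each, edgeR adjusted p = 0.253). Cyrib (adjusted p = 0.438) and Asap1 (adjusted p = 0.937), on the other side, were not called either, and A1bg was too low to test. Asap1 had a 95% interval of -0.19 to 0.21 on the log2 scale. Beside the A genes, Ormdl3 (adjusted p = 0.655) and Psmd3 (adjusted p = 0.0942) were not called, and Lrrc3c and Csf3 were too low to test.

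The neighbours called lower were Mafa, beside Gsdmd, and Mpp6, beside Gsdme. Mafa, a transcription factor gene, averaged 8.52 ± 1.83 CPM in AEW skin and 21.1 ± 2.12 CPM in vehicle skin (SD, n = 3 each). On the log2 scale the difference was -1.31 ± 0.18 (SE) at an edgeR adjusted p of 0.0119, and it stayed called with the mouse as a term (adjusted p = 0.0184). The Mafa call was lost without vehicle mouse 1 (adjusted p = 0.0506), without vehicle mouse 3 (adjusted p = 0.0622) and, with the mouse as a term, without mouse 2 or mouse 3. Mpp6 averaged 35.6 ± 0.818 CPM in AEW skin and 44.7 ± 2.86 CPM in vehicle skin (adjusted p = 0.0474), and of 15 alternatives only DESeq2 also called it (adjusted p = 0.0331).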

How the data were processed

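Per the file headers, the authors deposited estimated counts, FPKM and TPM per gene and library, with their own group means. The submitters' processing notes name HISAT and GRCm39. Neither the counting tool nor the annotation nor strandedness is stated there, so reads of overlapping genes cannot be told apart. The deposited estimated counts were rounded to whole numbers. Genes were kept by filterByExpr of edgeR at a minimum count of 10 (15109 genes), scaled with TMM and tested in R 4.3.3 by the quasi-likelihood method of edgeR 4.0.16, group being the single term. P-values were adjusted by Benjamini-Hochberg over all tested genes at 0.05, and "called" means past that threshold. SEs come from each F statistic. Levels are the deposited TPM, or TMM-scaled CPM where stated; the FPKM values served as an alternative to TPM.

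The members and gene lists were chosen with earlier results of these data known, so members get no p-value. Partners were taken from lists by role, naming those called and, of each list, the 2 others with the smallest p. Partners near 0 could be named too. The values of 1 partner that the rule names are not reported here. Likeness used log2(CPM + 0.1), genes whose mean log2 CPM reached 1, and no predicted gene models. Sequence comparisons used the transcript with the longest coding sequence of each member in GENCODE M21. RefSeq promoters of GRCm38.p6 were found for 3 of the 9 members. The test was tested on simulated data with known changes.

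Libraries with the same number come from the same mouse, per the labels, and so are paired by design. Correlations of their deviations from group means were -0.244, -0.165 and -0.246, against 0.0496 to 0.181 between different mice. Alternatives were a block for mouse, DESeq2 1.42.0, limma 3.58.1, other scalings, no filter and leaving out libraries. Libraries of a group differed by more than sampling noise in every pair (chi-square of 19.8 or more for each degree of freedom).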

Additional observations from a re-analysis of the deposited data

How the results depend on the processing

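The direction of Gsdma, Gsdma2, Gsdma3, Gsdmc and Gsdmc2 held in all 15 alternatives run for each. Gsdma was called in 7 of them, Gsdma2 in 4, Gsdma3 in 8, Gsdmc in 12 and Gsdmc2 in 6. The fits with a replicate block pair the cheeks by mouse, and with it the counts were 300 genes higher, 588 lower, 1 gasdermin higher and 0 partners lower; it changed no other gasdermin or partner call than those given above. DESeq2 called 1364 genes higher, and 1 partner higher and 2 lower, and limma on log2(TPM + 0.1) called 676 genes lower. Leaving out 1 library gave 23 to 1197 genes higher, 117 to 1041 lower, 0 to 5 gasdermins higher, 0 to 4 partners higher and 0 to 2 lower. Leaving out a whole mouse, with the replicate block, gave 1922, 112 and 0 genes higher and 1588, 279 and 0 lower without mice 1, 2 and 3. The same 3 fits gave 5, 1 and 0 gasdermins higher, 13, 0 and 0 partners higher and 2, 0 and 0 lower, and the cause was not tested. The sign of genes that were not called turned in a few fits. Gsdmd ranged from -0.22 to 0.10 with 1 library left out, with 0.06 without vehicle mouse 1, 0.10 without AEW mouse 1, and had 0.21 without mouse 1 and with the block, and Gsdme had -0.05 without mouse 2 and with the block. Asap1 had -0.03 without vehicle mouse 3, -0.02 without AEW mouse 1 and 0 without mouse 3 and with the block, and Npy, a neighbour of Gsdme, ranged from -0.14 without AEW mouse 1 to 0.77 without AEW mouse 2, and had -0.27 without mouse 1 and with the block. In FPKM, 4 pairs of neighbours in the order of levels did not overlap in AEW skin and 5 in vehicle skin, as in TPM. Fewer than 6 counts per library limit Gsdmc3 and Gsdmc4.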
